A study of Triticum monococcum with 6 samples.

Results

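Of the 61179 probesets analysed, 4 read 3 genes whose signal fell deepest, or nearly so, in the einkorn wheat mutant mvp relative to wild type. A pair reads PHYC, the gene of the photoreceptor phytochrome C, 1 reads Cir, a gene annotated by its similarity to a maize entry called circumsporozoite protein, and 1 reads UnG, a gene of an uncharacterized protein. The probesets of PHYC, Ta.28005.1.A1_at and TaAffx.116496.1.S1_at, are called A1 and S1 for short. They were listed by their probeset IDs, and because earlier results of the same arrays were known when they were listed, the differences between mvp and wild type given here for these 4 are descriptions and carry no test.

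RNA of whole aerial parts was hybridised to 6 Affymetrix wheat genome arrays. The 3 mvp arrays each read a pool of 5 homozygous mvp plants (15 plants in all), and the 3 wild-type arrays each read a pool of 3 plants (9 in all). Both kinds were spring einkorn (Triticum monococcum, a diploid wheat) raised at 20 ºC for 3 weeks in long days (16 h light, 8 h dark) before 7 d at 4 ºC in the same photoperiod, so that all plants had been cold-acclimated. The mvp line came from a nitrogen ion-beam treatment and carries a deletion that holds more than 1 gene, VRN1 and PHYC among those that the study names, so that no single gene separates it from wild type. The study ran PCR on genomic DNA of the same plant samples. It found the coding region of Cir still present in mvp, whereas UnG appeared to be deleted. The place of either gene was not analysed here. The mvp plants had also been picked by their small size and by the absence of VRN1, PHYC and CYSTEINE PROTEINASE transcripts, and the low PHYC signal is therefore in part a selection. They had not made elongated stems or a floral apex, and in whole aerial parts fewer cells of a type and less RNA per cell cannot be told apart. Values are log2 signals made by the authors with the RMA method, in which background is removed, the arrays are quantile-normalized to a common distribution and the oligonucleotides of a probeset are summarized into 1 value per array. No detection call comes with these values, so that a low signal does not by itself show that a transcript was absent. The study also ran RT-PCR on the same RNA samples and reports Cir, UnG and PHYC as not expressed in mvp. Its qRT-PCR found very low or undetectable Cir and UnG and a low level of PHYC in mvp. Signal also depends on how well each probeset binds its transcript, so that the place of a probeset within an array is a description of its signal and not of how much transcript there was.

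Phytochromes are plant light receptors that switch between an inactive form and an active form as they absorb red and far-red light. In temperate cereals phytochrome C takes part in the long-day response that leads to flowering, upstream of the photoperiod gene PPD1 and of FT, the mobile flowering signal. VRN1, a MADS-box gene, promotes the passage of the shoot apex to flowering. The name circumsporozoite protein comes from a surface protein of malaria parasites and says nothing of what Cir does in wheat, and no role is known here for UnG.

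Both PHYC probesets read far less in mvp than in wild type. The A1 probeset read 5.47, 5.54 and 5.21 in mvp replicates 1, 2 and 3, against 9.54, 9.46 and 9.28 in wild type. The S1 probeset read 2.72, 2.74 and 3.10 in mvp, against 6.69, 6.66 and 6.80 in wild type. Every mvp array lay below every wild-type array, with a gap of 3.74 between the highest mvp and the lowest wild-type value for A1 and of 3.56 for S1. Groups that do not overlap, with mvp lower, were found for 10.6% of all probesets, and since the members were listed for this contrast nothing is read from their count. The log2 difference, mvp minus wild type, was -4.02 with a standard error of 0.13 for A1, a 16.3-fold lower signal. It was -3.86 with a standard error of 0.13 for S1, a 14.5-fold lower signal, whose size depends on the treatment of low values.

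The probesets of PHYC were also compared with each other array by array. On the log2 scale A1 minus S1 was 2.74, 2.80 and 2.11 in mvp replicates 1, 2 and 3 (2.55 ± 0.38, SD, n = 3 pools), against 2.86, 2.80 and 2.48 in wild type (2.71 ± 0.20, SD, n = 3 pools). The fall of A1 minus that of S1 was -0.16 with a standard error of 0.25 on the values as deposited, but S1 was near the lower end of the mvp arrays, and with each array's 25th percentile as the lowest value the log2 differences were -4.02 for A1 and -2.54 for S1, so that equal falls are not shown. The arrays of a group were not ordered alike by the pair, since replicate 3 was the lowest mvp array and the lowest wild-type array for A1 and the highest of both groups for S1.

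The mvp signals of the PHYC probesets lay at very different places in the arrays, and whether any of this signal came from PHYC RNA was not tested. A1 stood at percentiles 46.6, 48.0 and 42.6 of the mvp arrays, just under their medians, against 90.0, 89.7 and 88.6 of the wild-type arrays. S1 stood at percentiles 1.35, 1.40 and 6.20 of the mvp arrays, against 65.6, 65.4 and 67.1 of the wild-type arrays. S1 was thus near the floor of the array in mvp, and the size of its fall depended on how low values were treated. When each array's 25th percentile was set as the lowest value, the fall of S1 was 5.81-fold, whereas that of A1 stayed at 16.3-fold. With the array median as the lowest value it was 2.09-fold for S1 and 13.7-fold for A1.

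Cir had the deepest fall of all probesets measured. Its probeset, Ta.29481.1.S1_at, read 4.64, 4.23 and 4.30 in mvp replicates 1, 2 and 3, against 11.66, 11.88 and 11.83 in wild type. It was among the brighter probesets of the wild-type arrays, at percentiles 97.4, 97.8 and 97.7, and stood at percentiles 32.4, 25.9 and 27.3 of the mvp arrays. The gap between the groups was 7.02, and the spread within each group was small beside it (4.39 ± 0.22 in mvp and 11.79 ± 0.12 in wild type, SD, n = 3 pools each). The log2 difference was -7.40 with a standard error of 0.14, a 169-fold lower signal in mvp, and it was the same with the 25th percentile as the lowest value. With the array median as the lowest value the fall was 70.3-fold, and Cir still fell more than the other 3 members.

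UnG fell almost as far. Its probeset, TaAffx.85922.1.S1_s_at, read 3.75, 4.13 and 4.17 in mvp, against 10.93, 10.78 and 10.87 in wild type. All 3 mvp arrays were near the 25th percentile or below it (percentiles 17.4, 24.1 and 25.2), against percentiles 95.6, 95.2 and 95.4 in wild type. The gap between the groups was 6.60. The log2 difference was -6.84 with a standard error of 0.14, a 115-fold lower signal, which became 102-fold with the 25th percentile as the lowest value and 36.9-fold with the array median. The ending s_at marks a probeset whose oligonucleotides can bind more than 1 transcript, and its wild-type signal may then come from more than 1 gene.

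**Figure D1:**
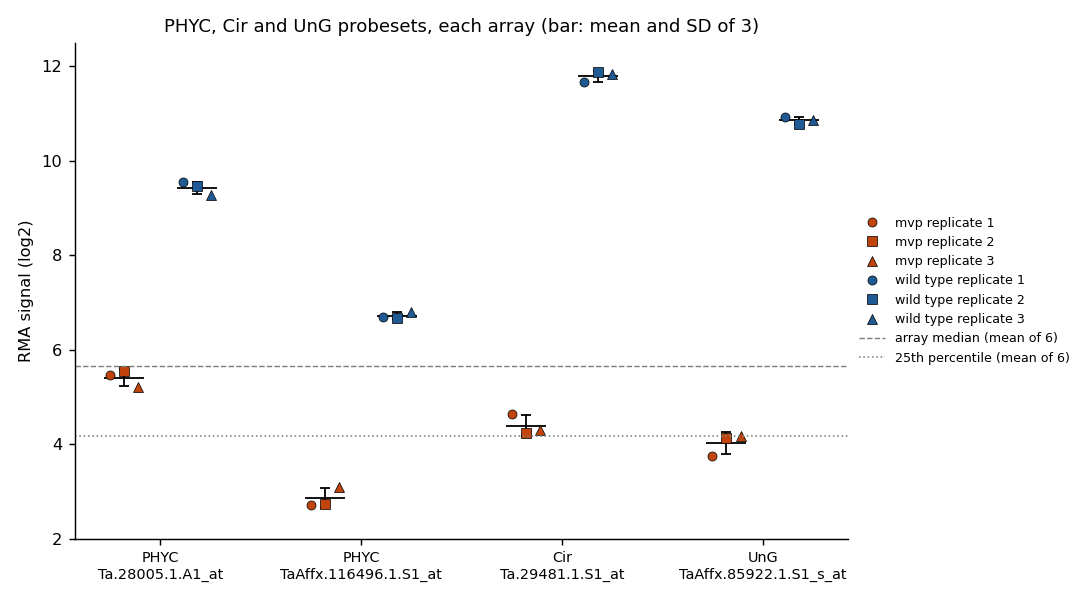
RMA signal (log2, vertical axis) of the PHYC, Cir and UnG probesets in each array, with mvp in orange at the left and wild type in blue at the right of each probeset, replicates by marker shape, and black bars for the mean and SD of 3 pools. The mvp values of A1 of PHYC (5.21 to 5.54) lie just under the dashed array median, those of Cir and UnG lie near the dotted 25th percentile, and those of S1 of PHYC (2.72 to 3.10) lie well below it.

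The mvp pools scattered more than the wild-type pools for all 4 probesets. The SD between mvp pools was 0.17 and 0.21 for the PHYC probesets, 0.22 for Cir and 0.24 for UnG, against 0.13, 0.07, 0.12 and 0.08 between wild-type pools. These mvp SDs stood at percentiles 82.1 to 93.6 of all probesets, against percentiles 35.0 to 70.3 for the wild-type SDs. The median SD over all probesets was 0.097 in mvp and 0.097 in wild type. A larger SD in mvp was not particular to the members, since VRN1 (0.38 against 0.12) and FT (0.26 against 0.10) had it too. The MADS-box probeset MADS2 did not (0.15 against 0.16). The mvp values are low signals and the wild-type values are not, and the part of this in the spread was not tested. No mvp array was the lowest for all 4 probesets, since replicate 1 was highest for Cir and lowest for UnG and for S1 of PHYC. Of the 12 mvp values of the 4 probesets 5 were below the 25th percentile of their array, and none of the 12 wild-type values was.

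Other probesets with the same ID stem, which on this array marks a shared sequence cluster, were found for Cir and UnG and not for PHYC. There were 2, of which 1 was called lower in mvp with limma at an adjusted p under 0.05, where 3.67% of all probesets were called in either direction and 1.61% were called lower. Their median log2 difference was -1.95, against -0.002 over all probesets. The UnG cluster has TaAffx.85922.1.S1_x_at, which the study also lists. The study gives it the same GenBank sequence as the UnG member but annotates it to another uncharacterized protein. This x_at probeset read 5.61, 5.88 and 5.29 in mvp, against 9.07, 9.02 and 9.10 in wild type, an 11.1-fold lower signal (log2 difference -3.47, limma adjusted p = 1.7e-06 over all probesets). A call together with a signal at least 2-fold lower was made for 0.172% of all probesets. Since the study lists it among changed genes, its fall is no independent evidence, and with the methods' t-test its adjusted p was 0.057. The Cir cluster has Ta.29481.2.S1_x_at, which read 3.84, 3.73 and 3.04 in mvp, against 4.15, 3.99 and 3.74 in wild type. Its groups overlapped and its difference of -0.42 did not pass (adjusted p = 0.32). All its values lay at or below percentile 24.6 of their arrays, so that this probeset had little signal to lose and a deep fall could not have been seen in it. An ID stem does not show that probesets read 1 gene, and those ending in x_at can bind other transcripts as well.

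Probesets that the study annotates to the same protein as Cir or UnG were lower too, but they come from its list of changed genes and carry no test here. The other probeset annotated to the protein of UnG, called UnG-2 here, read 4.66, 5.0 and 4.63 in mvp, against 11.53, 11.60 and 11.66 in wild type. The name UnG-2 stands for a probeset and not for a further gene. The study lists the GenBank sequence of UnG-2, and not that of the UnG member, with its UnG primers. The log2 difference of UnG-2 was -6.84, as for the UnG probeset itself. The fall of UnG-2 minus that of UnG was 0.01 with a standard error of 0.16 on the values as deposited. With the 25th percentile as the lowest value the falls were 114-fold for UnG-2 and 102-fold for UnG, and with the array median 61.6-fold for UnG-2 and 36.9-fold for UnG. The x_at probeset of the UnG cluster fell less than the s_at probeset of the same cluster. The fall of s_at minus that of x_at was -3.37 on the log2 scale with a standard error of 0.24, and the x_at values of mvp lay near the array medians, at percentiles 43.9 to 53.9.

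The probesets that share the annotation of Cir fell by much less than Cir did. An s_at probeset of another ID cluster read 6.51, 6.30 and 6.65 in mvp, against 9.13, 9.09 and 9.28 in wild type, a 6.41-fold lower signal. It stayed above the array median in mvp, at percentiles 60.2 to 65.2. The x_at probeset beside it read 5.18, 4.85 and 4.37 in mvp, against 6.34, 6.11 and 6.34 in wild type, a 2.77-fold lower signal. The other members of that cluster were looked up after these values were seen. The first sub-cluster read 6.51, 6.47 and 6.12 in mvp, against 6.68, 6.72 and 6.56 in wild type (log2 difference -0.28, limma adjusted p = 0.24). The second sub-cluster had a log2 difference of -0.09 (adjusted p = 0.61), at percentiles of 10.3 or less in every array. Hence the probesets with the Cir annotation did not fall alike: the fall was deep in Cir itself and smaller in the s_at and x_at pair, which form the third sub-cluster.

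**Figure D2:**
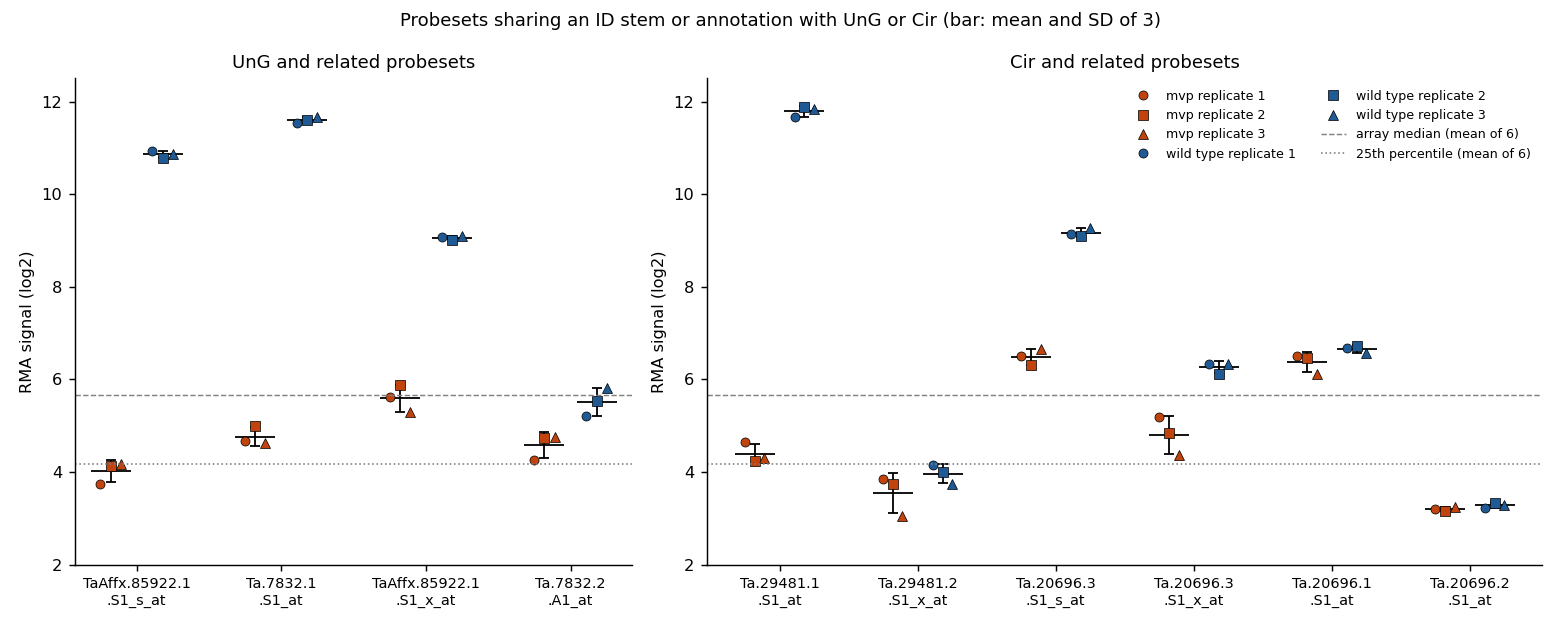
RMA signal (log2, vertical axis) of UnG and 3 related probesets (left) and of Cir and 5 related probesets (right), with mvp in orange and wild type in blue in each array, black bars for the mean and SD of 3 pools, and lines for the array median and 25th percentile. UnG-2 and UnG both have a difference of -6.84, whereas the probesets related to Cir run from a 6.41-fold lower signal to groups that overlap in the x_at probeset of the Cir cluster and in the second sub-cluster of the Cir annotation.

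Over the whole array such falls were rare. The median absolute log2 difference was 0.088, and a fall of at least 3 on the log2 scale was seen for 13 of the 61179 probesets. Cir, UnG and the PHYC probesets A1 and S1 held places 1, 2, 9 and 11 when probesets were ordered from the deepest fall on the values as deposited. The place of S1 is not fixed, since with the 25th percentile as the lowest value its difference of -2.54 was no longer a fall of at least 3. Places 3 and 12 were those of UnG-2 and the x_at probeset of the UnG cluster. Among the remaining places, 5 are held by probesets annotated as MADS-box genes, with VRN1 at place 4, and 1 by an amylase inhibitor-like protein. Below Cir the first places lie close together, with log2 differences of -6.84, -6.84, -6.76 and -6.72 at places 2 to 5 and standard errors of 0.13 to 0.23, and their order is not settled.

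**Figure D3:**
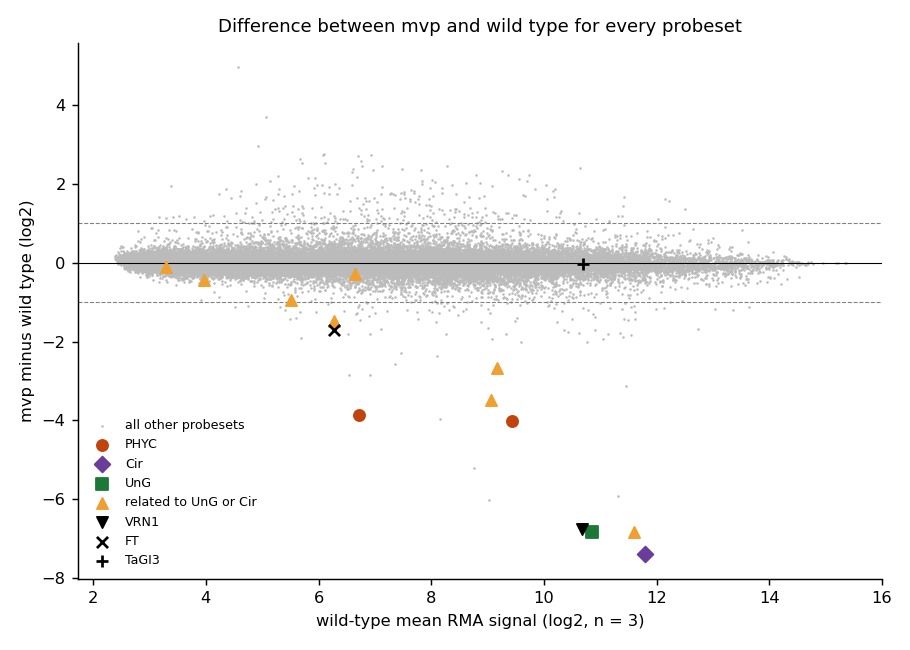
Difference between the group means (mvp minus wild type, log2, vertical axis) against the wild-type mean signal (log2, horizontal axis) for every probeset, in grey, with named probesets in colour and dashed lines at a 2-fold change. Cir, UnG, UnG-2 and VRN1 sit together at the bottom, at -6.76 to -7.40, the PHYC pair sits at -4.02 and -3.86, and most of the array lies close to 0.

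The probesets whose values over the 6 arrays were most like those of a member were found by the root mean square (RMS) difference of log2 values, each centred on its own mean. The PHYC probesets were 0.26 apart. Of the probesets described here, the next to both was the x_at probeset of the UnG cluster, at an RMS difference of 0.30 from A1 and of 0.35 from S1. It was followed by the amylase inhibitor-like protein, at 0.60 from A1 and 0.54 from S1. That probeset read 7.62, 8.97 and 8.37 in mvp, against 11.36, 11.59 and 11.42 in wild type, an 8.80-fold lower signal.

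For UnG the closest were VRN1 at 0.16, UnG-2 at 0.16 and MADS2 at 0.25. For Cir the same probesets came first among those that are not members, at 0.36 for UnG-2, 0.37 for MADS2 and 0.48 for VRN1. The UnG member itself was 0.40 from Cir. VRN1 read 3.53, 4.28 and 3.94 in mvp, against 10.74, 10.76 and 10.55 in wild type. Likeness over 2 groups of 3 arrays mostly reflects the size of the difference between the groups, and it carries no test.

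**Figure D4:**
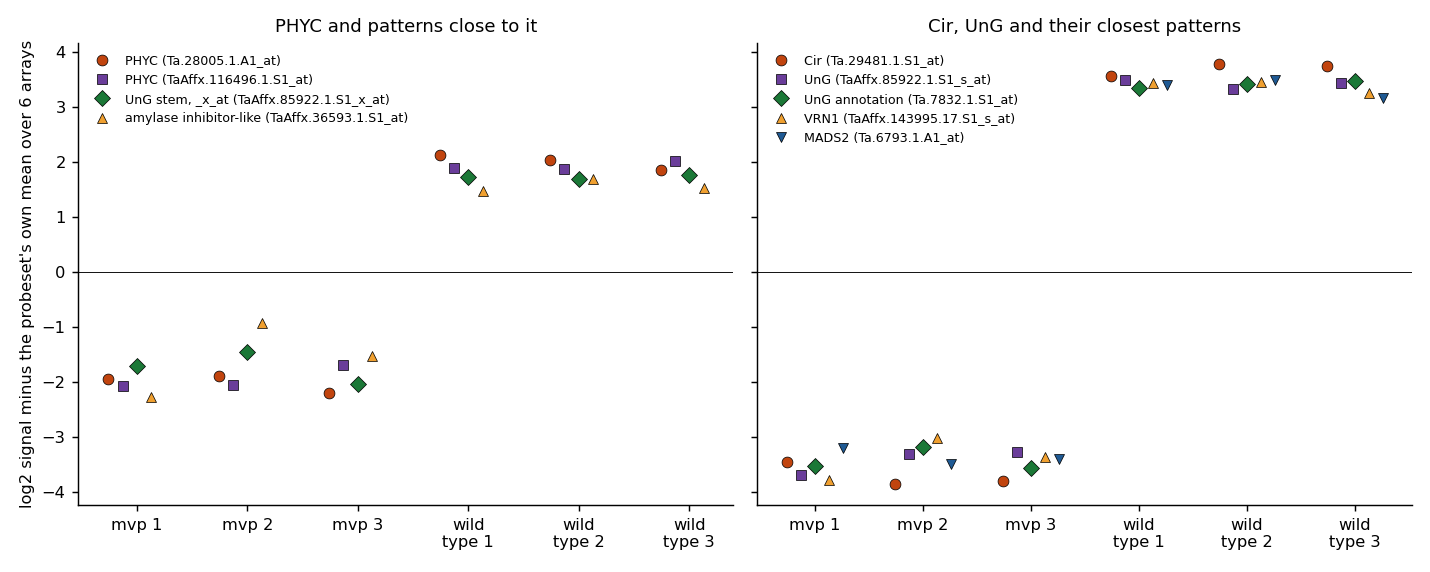
Signal of each array (mvp at the left, wild type at the right) as log2 values minus the probeset's own mean over the 6 arrays, for PHYC and 2 probesets close to it (left panel) and for Cir, UnG and theirs (right panel). The PHYC pair, 0.26 apart, and the x_at probeset of the UnG cluster lie close together, whereas the amylase inhibitor-like probeset scatters more among the mvp pools (SD 0.67).

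Genes of light reception and day-length response, from other phytochromes and cryptochromes to PPD1 and CONSTANS, were looked for by name or by an ID that the study gives. The list came to 5 probesets, of which 2 are the PHYC members. The other 3 are VRN1, FT and TaGI3. Of these 2 were called lower and none higher in limma, where 1.61% and 2.06% of all probesets were called. All 3 are genes that the study had chosen to check these arrays, with TaGI3 as an unchanged control. Their count was therefore given in advance, and nothing is read from it. VRN1 had also served to pick the mvp plants, and FT is among the marker genes by which the study knew them. Only the VRN1 probeset that the study checked was put on the list. Another probeset with the same study annotation was 60.6-fold lower in mvp, and the study lists a further one with a much smaller fall. FT read 4.46, 4.88 and 4.41 in mvp, against 6.21, 6.40 and 6.23 in wild type, a 3.25-fold lower signal. TaGI3, a wheat relative of the clock-controlled gene GIGANTEA, read 10.74, 10.54 and 10.71 in mvp, against 10.79, 10.83 and 10.48 in wild type. Its groups overlapped (log2 difference -0.03, standard error 0.13, limma adjusted p = 0.92).

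The matched markers of shoot apex, stem and leaf came from the study's list of changed genes. A difference between mvp and wild type in them was therefore given in advance. The photosynthesis gene petC, taken from the platform annotation after the data were seen, read 14.06 to 14.10 in mvp and 14.03 to 14.10 in wild type on the brighter of its probesets. Of the markers of shoot apex and stem 2 were matched, both from the study's list of changed genes. KNOX3, a homeobox gene of the apical meristem, read 4.77, 5.87 and 4.73 in mvp, against 6.56, 7.23 and 6.96 in wild type. A stem-specific protein read 3.90, 4.53 and 4.18 in mvp, against 5.45, 5.41 and 5.34 in wild type. KNOX3 was 3.48-fold lower and the stem-specific protein 2.29-fold lower, and their part in the falls of PHYC, Cir and UnG was not tested. The only leaf marker matched, a chlorophyll a-b binding protein of the same list, read 9.67, 10.47 and 9.77 in mvp, against 10.99, 10.99 and 10.98 in wild type, a 2.02-fold lower signal. The study annotates this probeset to a protein of Solanaceae and not to one of a grass. No grain or root marker was matched by name.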

How the data were processed

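Transcript levels of PHYC, Cir and UnG were taken from 6 Affymetrix arrays, 3 of mvp and 3 of wild-type pools. The deposited values are log2 signals, which the authors made in FlexArray with RMA, so that background correction, normalization and summarization were done before deposit. The table holds 61290 probesets, and 111 control probesets were left out. The labels gave the groups and the replicate numbers. The SD of the log2 differences between arrays of 1 group was 0.185 to 0.202, and the array medians were 5.64 to 5.66. The number of arrays limits the precision.

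The members and gene lists were chosen with earlier results of these data known. Folds are differences of log2 means taken back to the linear scale. Probesets that were not members were called at an adjusted p under 0.05 (Benjamini-Hochberg over 61179 probesets) from lmFit and eBayes of limma 3.58.1, run under R 4.3.3, after the steps were tested on simulated data. Plots were drawn with matplotlib 3.10.9 under Python 3.11.15. The probesets named are the 4 members, those sharing their ID stem or annotation, the light and day-length list, the markers and the 3 closest patterns per member, of which 1 pattern close to PHYC is not reported here. The platform annotation names 1273 probesets and none of the members. Alternatives were low values raised, dim or multi-transcript probesets left out, quantile normalization again, median centring, the trend and robust options, the methods' t-test, a replicate block, and each array left out. No sequence of these probesets was used here.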

Additional observations from a re-analysis of the deposited data

How the results depend on the processing

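The log2 differences of the 4 members kept their direction under every alternative run. With each array left out in turn they were -4.10 to -3.93 and -3.98 to -3.80 for the PHYC probesets A1 and S1, -7.53 to -7.32 for Cir and -6.92 to -6.71 for UnG. Raising low values to the 25th percentile moved S1 to -2.54, and raising them to the array median moved it to -1.06, A1 to -3.77, Cir to -6.14 and UnG to -5.21, as raised mvp values must. The filter on dim probesets removed S1.

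The number of probesets called in limma was 2247 of 61179, and 1042 to 1803 with each array left out in turn (1042 without mvp replicate 1, 1473 without mvp replicate 3, 1109 without wild-type replicate 1, 1168 without wild-type replicate 2, 1397 without wild-type replicate 3). The methods' t-test called 33 after the Benjamini-Hochberg adjustment, which was added here and is not the study's criterion. Leaving out dim probesets gave 3133 of 30590 tested, a larger share. The number was 1372 of 48453 tested without probesets that can bind several transcripts, and 365 of 61179 when a fold of at least 2 was also asked for. With the replicate number as a block it was 1842, and the block changed none of the counts over probesets related to the members. Same-numbered arrays did not deviate together (r = 0.057, -0.03 and -0.043), so the numbers do not pair the pools. Among the probesets sharing an ID stem with a member, the methods' t-test left 0 called, and so did leaving out probesets that can bind several transcripts, which removed both. Under that filter 1 of those annotated as Cir or UnG was left and called. Of VRN1, FT and TaGI3, 1 was called with the dim probesets left out, 1 with the methods' t-test and 1 without probesets that can bind several transcripts. The other alternatives left the counts within 1.5 times. The same floor at the 25th percentile for the probesets related to Cir and UnG was chosen after seeing the data and turned no direction, except that the difference of the x_at probeset of the Cir cluster (-0.42) was lost, at 0.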

Other observations

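A probeset that shares its ID stem with UnG-2 read 4.26, 4.73 and 4.76 in mvp, against 5.20, 5.54 and 5.81 in wild type. It was looked up after the values were seen. Its groups did not overlap, and its log2 difference of -0.93 passed in limma (adjusted p = 0.018 over all probesets). Of all probesets 10.6% had groups that did not overlap with mvp lower, and 1.61% were called lower.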
